A study of Epimedium pubescens with 27 samples.

Results

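Leaf RNA was compared between 48 days after treatment (DAT), stage S3, and 36 DAT, stage S2, in seedlings of Epimedium pubescens kept on high nitrate (HN, 22.5 mM). The comparison took the 3 HN S3 libraries (A, B and C) and the 3 HN S2 libraries (A, B and C) by the treatment and day in their labels, 6 of the 27 libraries in the series, and covered all 58645 genes of the tables, of which 22760 had enough counts to be tested. Both groups carried the same treatment and differed in its duration: the seedlings had recovered on dilute Hoagland solution in sand and perlite under greenhouse light. They then received nutrient solution whose nitrate came from KNO3 and Ca(NO3)2, brought up to the target with NaNO3. The remaining libraries were HN at 24 DAT (S1) and the medium-nitrate (MN, 7.5 mM) and low-nitrate (LN, 0 mM) treatments at 24, 36 and 48 DAT, again 3 libraries for each treatment and day. The study called A, B and C biological replicates without saying whether a library was a plant or a pool, so the p-values measure the spread between these libraries. It recorded necrosis of older HN leaves at 48 DAT without saying which leaves were sequenced. Longer exposure to HN, leaf ageing and seedling growth over those days therefore cannot be told apart within this comparison, and in RNA of whole leaves fewer cells of a type and less RNA per cell cannot be told apart either.

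Nitrate taken up by the roots is reduced and built into glutamine and glutamate, and the carbon skeletons for this come from the same sugars that supply starch, cell walls and phenolic compounds. Epimedium leaves are known for icariin-type compounds, prenylated flavonol glycosides made from phenylalanine through the phenylpropanoid pathway, chalcone synthase, flavonol synthase, a prenyltransferase and several glycosyltransferases. As a leaf matures, wall and cuticle synthesis normally declines, and as it ages, nitrogen is recovered from chloroplast proteins and moved to younger organs.

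Gene levels are given as FPKM, the number of fragments scaled for transcript length and library size, and changes as the log2 fold change (log2 FC) of HN S3 over HN S2 from edgeR's quasi-likelihood test on the counts. The standard error (SE) is not an edgeR output. It was derived as the size of the log2 FC divided by the square root of the F statistic of that test. Values of a group are given in the order of libraries A, B and C. A gene was counted as a differentially expressed gene (DEG) at a Benjamini-Hochberg adjusted p below 0.05 over all tested genes and a log2 FC of 1 or more in size. Total counts were 17003783, 15475583 and 15112479 in HN S3 A, B and C, against 14629489, 14792261 and 17801159 in HN S2 A, B and C. The libraries of a group were unevenly spaced. HN S3 A and B correlated at r = 0.977 over the genes' log2 CPM (counts scaled to the library total), whereas HN S3 C stood closer to HN S2 C (r = 0.896) than to HN S3 A (r = 0.865) or B (r = 0.883). Likewise HN S2 B and C correlated at r = 0.958, while HN S2 A reached 0.877 and 0.884 with them and 0.880 with HN S3 C. These correlations are over genes within pairs of libraries and are descriptions only.

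In total 787 DEGs were found, 3.46% of the tested genes: 419 genes rose (1.84%), with a median log2 fold change of 1.81, and 368 fell (1.62%), with a median of -1.67. In all 787 the 3 libraries of a group lay on the same side of the 3 of the other, as they did for 34.6% of all tested genes. For a DEG named below, groups without overlap are thus no added support. The adjusted p-values lay between 0.0219 and 0.0499, close under the threshold, and the count turned on individual libraries. Without HN S3 A, without HN S3 B or without HN S2 B no gene passed, and without HN S2 C 1 gene did, whereas 3574 passed without HN S3 C and 1341 without HN S2 A. In the 3 fits with no call, 4353, 3921 and 4488 genes were at an unadjusted p below 0.05, and DESeq2 called 1629, 1320 and 1611. With all 6 libraries, 6256 genes (27.5%) were at an unadjusted p below 0.05, and DESeq2 called 2864 genes, 1532 higher (5.53%) and 1332 lower (4.8%), among them 786 of the 787. Of the 787 DEGs, 770 also passed without HN S3 C, 573 without HN S2 A, and 761 with only the close pairs HN S3 A and B against HN S2 B and C. Each DEG named below was lost when HN S3 A, HN S3 B, HN S2 B or HN S2 C was left out. A value given for a DEG without HN S2 A or without HN S3 C marks a call that was lost there.

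**Figure D1:**
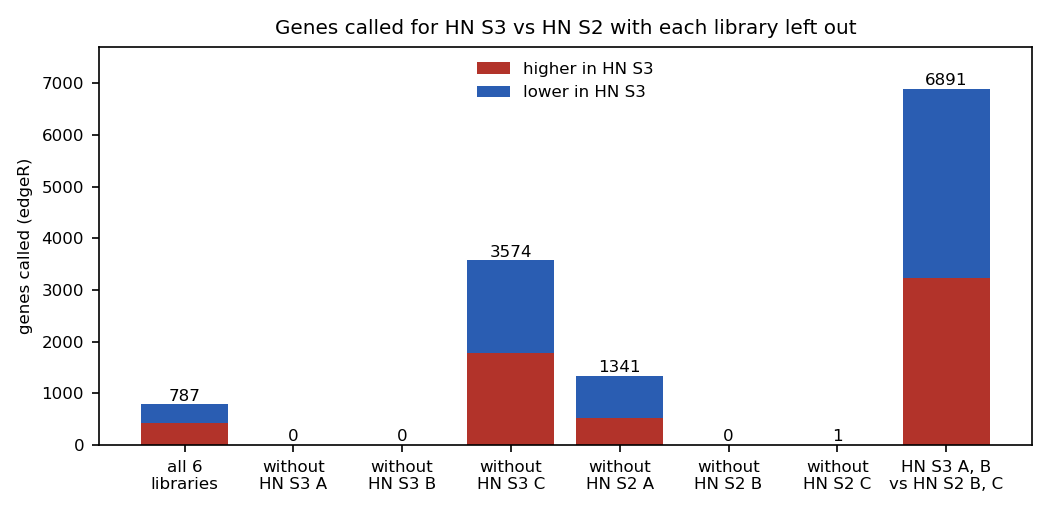
Number of DEGs, higher in HN S3 (red) and lower (blue), with all 6 libraries and with each library left out in turn. All 6 libraries gave 419 higher and 368 lower genes, leaving out HN S3 A, HN S3 B or HN S2 B gave 0, and leaving out HN S3 C gave 3574.

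The 10 described genes higher in HN S3 that are named first had the smallest p among genes whose groups did not overlap. The leading one matched PLANT CADMIUM RESISTANCE 3, from a family of small membrane proteins that affect metal handling in Arabidopsis. This gene, a model assembled from the reads and absent from the reference annotation (chromosome 2, 348798372 to 348901729, + strand), had 18.1, 19.6 and 28.9 FPKM in HN S3, against 1.17, 1.17 and 0.897 FPKM in HN S2. All 3 HN S3 libraries stood far above HN S2 (log2 FC 4.38, SE 0.27, adjusted p = 0.0219 by edgeR). Under MN, however, the gene had 42.5, 0.0374 and 0.068 FPKM at S2 and 87.4, 100.4 and 263.5 FPKM at S3. Its level thus also varied widely between replicates of the same treatment and day. Its model spans several annotated genes on the same strand, including Ebr02G040500, a match to the related cell number regulator 10, which had 107, 123 and 156 FPKM in HN S3, against 5.66, 1.26 and 3.18 FPKM in HN S2 (log2 FC 5.26, SE 0.52, adjusted p = 0.0244). The groups were again clear of each other, but reads shared by the overlapping models make the separate levels uncertain. Ebr03G073380, an F-box protein matching PP2-B15 (F-box proteins select targets for ubiquitination), had 19.99, 25.9 and 29.7 FPKM in HN S3 and was at 0 in all 3 HN S2 libraries, so that it was at least 122-fold higher in HN S3 when a floor of 3 counts per library is set for HN S2 (adjusted p = 0.0219 by edgeR). Annexin D6, Ebr05G040280, of the calcium-dependent membrane-binding annexins, had 9.65, 9.69 and 9.54 FPKM in HN S3, against 0.0596, 0.199 and 0.0538 FPKM in HN S2 (log2 FC 6.49, SE 0.54, adjusted p = 0.0219), nearly the same level in every HN S3 library and close to nothing in HN S2.

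Alpha-amylase Ebr03G004260, an enzyme that cuts starch chains internally, had 63.8, 69.7 and 169 FPKM in HN S3, against 1.83, 1.53 and 1.32 FPKM in HN S2 (log2 FC 6.03, SE 0.50, adjusted p = 0.0219). HN S3 C was the highest library, and the groups were far apart. At HN S1 the same gene stood at 152, 77.1 and 43.7 FPKM, so its low level was that of HN S2. Non-symbiotic hemoglobin 2, Ebr06G009310, of the plant globins that bind oxygen and nitric oxide, was the most abundant of these 10 genes, with 814, 918 and 818 FPKM in HN S3, against 227, 186 and 237 FPKM in HN S2 (log2 FC 1.99, SE 0.17, adjusted p = 0.0219). The cysteine proteinase inhibitor Ebr01G038010, a match to inhibitors of papain-like proteases, had 701, 728 and 568 FPKM in HN S3, against 210.2, 190.3 and 209 FPKM in HN S2 (log2 FC 1.73, SE 0.17, adjusted p = 0.0244). Both were high in all 6 libraries and roughly uniform within each group. A GDSL esterase, Ebr03G010020, of a family of lipid-cleaving enzymes, had 33.2, 29.5 and 25.6 FPKM in HN S3, against 3.13, 4.51 and 4.88 FPKM in HN S2 (log2 FC 2.83, SE 0.23, adjusted p = 0.0219). Jasmonic acid carboxyl methyltransferase Ebr04G029530, which makes methyl jasmonate, had 21.6, 24.97 and 29.9 FPKM in HN S3, against 4.38, 5.104 and 6.42 FPKM in HN S2 (log2 FC 2.28, SE 0.23, adjusted p = 0.0244). Fe(2+) transport protein 3, Ebr05G047870, of the ZIP metal transporters, had 29.4, 31.7 and 23.2 FPKM in HN S3, against 9.02, 8.95 and 7.88 FPKM in HN S2 (log2 FC 1.72, SE 0.18, adjusted p = 0.0244). Groups without overlap were a condition for naming these genes.

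The 10 leading genes that were lower in HN S3 were chosen in the same way. Wound-induced protein 1, Ebr01G071410, named for its induction by wounding in potato, had 59.98, 73.9 and 68.3 FPKM in HN S3, against 381, 366 and 288 FPKM in HN S2 (log2 FC -2.34, SE 0.17, adjusted p = 0.0219). The steepest drop was in a pinoresinol-lariciresinol reductase, Ebr05G013410, an enzyme of lignan synthesis, with 0.4302, 0.1395 and 0.734 FPKM in HN S3, against 50.1, 30.6 and 25.1 FPKM in HN S2 (log2 FC -6.28, SE 0.57, adjusted p = 0.0244). Its 3 HN S3 libraries were all below 1 FPKM, and its 3 HN S2 libraries all above 25. A WAT1-related protein, Ebr02G075690, of a family whose founder exports auxin from the vacuole in Arabidopsis, had 0.877, 1.37 and 0.491 FPKM in HN S3, against 30.4, 42.8 and 29.9 FPKM in HN S2 (log2 FC -5.22, SE 0.40, adjusted p = 0.0219). Zeatin O-xylosyltransferase Ebr06G029660, which conjugates cytokinin, had 3.08, 2.51 and 2.38 FPKM in HN S3, against 16.9, 12.2 and 15.7 FPKM in HN S2 (log2 FC -2.48, SE 0.23, adjusted p = 0.0244). In both genes the groups were well separated. The libraries within a group were alike for Ebr06G029660, whereas the HN S3 values of Ebr02G075690 rested on only 16, 22 and 9 counts.

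Cell surface and wall genes made up part of the same set. Beta-galactosidase 3, Ebr05G025490, which trims galactose from wall polymers, was the most abundant at HN S2 after wound-induced protein 1, with 101, 95.2 and 77.7 FPKM in HN S3, against 308, 313 and 281 FPKM in HN S2 (log2 FC -1.70, SE 0.17, adjusted p = 0.0244). Fasciclin-like arabinogalactan protein 4, Ebr01G064790, needed for normal cell expansion in Arabidopsis, had 9.78, 8.43 and 9.91 FPKM in HN S3, against 31.2, 42.7 and 31.2 FPKM in HN S2 (log2 FC -1.88, SE 0.19, adjusted p = 0.0244). In both, every HN S3 library lay under every HN S2 library by a wide margin. The homologue of PHOSPHATE-INDUCED 1, Ebr03G043560, had 7.94, 7.18 and 4.08 FPKM in HN S3, against 75.8, 78.4 and 47.4 FPKM in HN S2 (log2 FC -3.37, SE 0.33, adjusted p = 0.0244). A CRAL-TRIO lipid-binding protein, Ebr03G074040, had 1.89, 2.86 and 2.27 FPKM in HN S3, against 22.99, 17.6 and 24.5 FPKM in HN S2 (log2 FC -3.19, SE 0.30, adjusted p = 0.0244). SPX domain-containing protein 1, Ebr05G012830, part of the phosphate-sensing system, had 27.2, 27 and 24.1 FPKM in HN S3, against 72.8, 67.7 and 81.4 FPKM in HN S2 (log2 FC -1.49, SE 0.15, adjusted p = 0.0244). GLABRA 3, Ebr05G063290, a bHLH factor of trichome and anthocyanin control in Arabidopsis, had 26.7, 27.8 and 22.4 FPKM in HN S3, against 67.5, 73.05 and 74.8 FPKM in HN S2 (log2 FC -1.47, SE 0.15, adjusted p = 0.0244). These 2 changed less than the others but with narrow spreads.

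**Figure D2:**
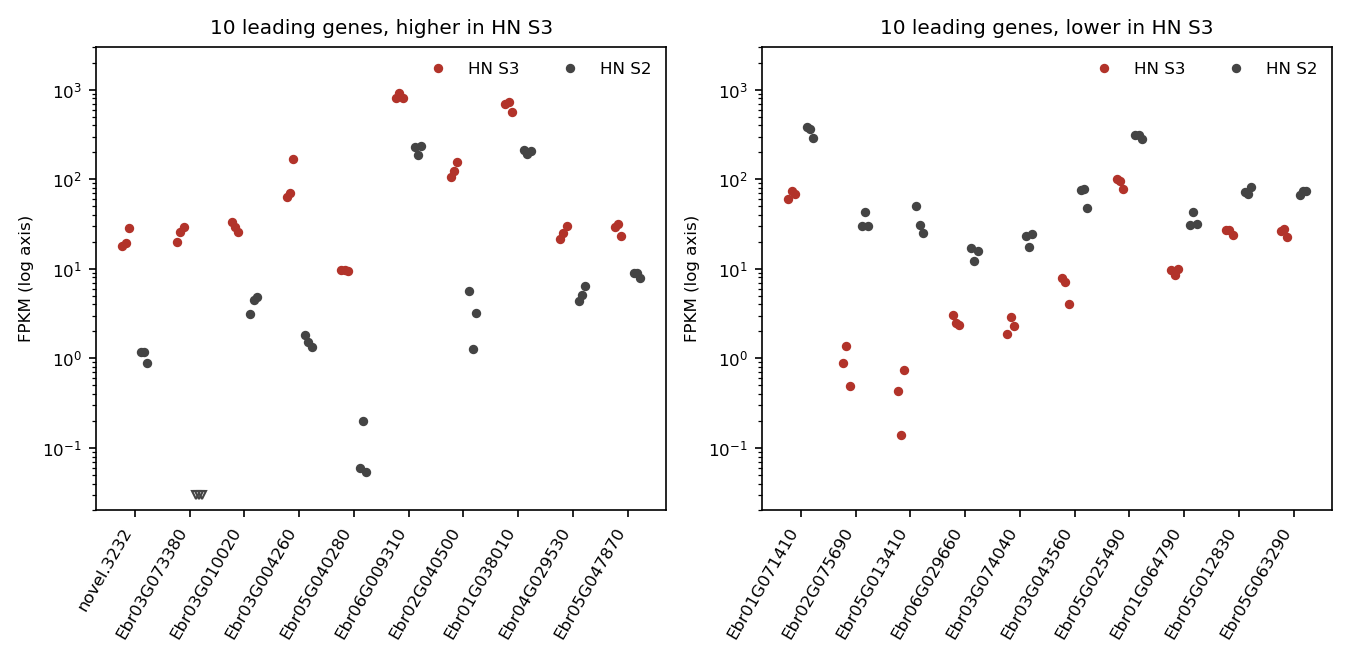
FPKM on a log axis of the 20 described genes with the smallest edgeR p whose groups did not overlap, 10 higher and 10 lower in HN S3, with the 3 HN S3 libraries (red) left of the 3 HN S2 libraries (grey) and open triangles for an FPKM of 0. Alpha-amylase reached 63.8, 69.7 and 169 FPKM in HN S3, against 1.83, 1.53 and 1.32 in HN S2, and the pinoresinol-lariciresinol reductase 0.4302, 0.1395 and 0.734 FPKM, against 50.1, 30.6 and 25.1.

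The tested genes were next grouped by their descriptions into 35 lists, each read against 1.84% of all tested genes that rose, 1.62% that fell and a median log2 fold change of -0.01. Since no gene passed without HN S3 A, HN S3 B or HN S2 B, and no listed gene without HN S2 C, the counts below hold for the full set of 6 libraries. The cellulose synthase list held enzymes that spin cellulose at the plasma membrane and also associated proteins, such as COBRA. Its median log2 fold change was -0.52, and for S3 over S2 it was -0.35 under MN and -0.03 under LN. Of its 56 tested members, 7 were lower and none higher (DESeq2 called 11 lower and 3 higher). Among them the CESA3 match Ebr06G014390 had 129, 113 and 112 FPKM in HN S3, against 259.8, 321 and 288 FPKM in HN S2 (log2 FC -1.28, SE 0.16, adjusted p = 0.0292 by edgeR). The CESA5 match Ebr05G035820 had 99.1, 93.8 and 100 FPKM in HN S3, against 281, 238 and 219 FPKM in HN S2 (log2 FC -1.32, SE 0.17, adjusted p = 0.0296). Both are subunits of the complex known from primary walls in Arabidopsis, and neither gene had overlapping groups. The others were 3 CESA1 matches, Ebr02G061830 (log2 FC -1.66, adjusted p = 0.0277), Ebr05G013970 (log2 FC -1.43, adjusted p = 0.0305) and Ebr02G061920 (log2 FC -2.42, adjusted p = 0.0377). Of CELLULOSE SYNTHASE INTERACTIVE 1, which ties the complex to microtubules, 2 matches fell, Ebr04G025500 (log2 FC -1.05, adjusted p = 0.0296) and Ebr05G040760 (log2 FC -1.20, adjusted p = 0.0309). All 7 also passed without HN S3 C, without HN S2 A and in the close pairs, where 24 members fell and 8 rose (15.5% and 13.7% of all genes there).

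Of the 41 tested genes for wall loosening, the expansins and xyloglucan endotransglucosylases (XTHs) that let walls extend, 2 fell and none rose (DESeq2 called 8 lower and 1 higher), with a median of -0.92. The median for S3 over S2 was -0.67 under MN and -0.52 under LN. The XTH9 match Ebr03G022690 had 6.66, 5.94 and 6.72 FPKM in HN S3, against 76.03, 376 and 323 FPKM in HN S2 (log2 FC -5.30, SE 0.63, adjusted p = 0.0277). HN S2 A was far below HN S2 B and C, yet still far above every HN S3 library. A second XTH, Ebr03G057880, had 33.8, 35.99 and 24.1 FPKM in HN S3, against 207, 223 and 124 FPKM in HN S2 (log2 FC -2.54, SE 0.28, adjusted p = 0.0257). The summed level of the list spread widely inside the groups, at 1835, 1705 and 980.3 FPKM in HN S3, against 1248, 3863 and 3067 FPKM in HN S2, and there the groups overlapped. The most abundant gene of the list, the XTH30 match Ebr04G003100, had 892, 809.5 and 274 FPKM in HN S3, against 578, 370 and 374 FPKM in HN S2. It was not a DEG (log2 FC 0.59, SE 0.44, adjusted p = 0.422 by edgeR). In the close pairs it rose (log2 FC 1.19, adjusted p = 0.00056 by edgeR), where 5 members rose and 22 fell. Close copies within the XTH and expansin families may share reads.

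Of 68 pectin-modifying genes, 4 fell and 2 rose (DESeq2 called 3 higher and 17 lower), with a median of -0.46. The median for S3 over S2 was -0.9 under MN and -0.49 under LN. The list's most abundant gene, pectinesterase 54 Ebr02G026620, was not a DEG (log2 FC 0.11, SE 0.38, adjusted p = 0.874 by edgeR). It had 1559, 1608 and 1155 FPKM in HN S3, against 2164, 1006 and 876 FPKM in HN S2. Pectinesterase 61, Ebr04G024280, which removes methyl groups from pectin, had 119, 104 and 82.2 FPKM in HN S3, against 376, 451 and 339 FPKM in HN S2 (log2 FC -1.92, SE 0.20, adjusted p = 0.0244), with every HN S3 library under every HN S2 library. Pectin acetylesterase 10 Ebr01G015960 (log2 FC -1.59, adjusted p = 0.0325), a polygalacturonase Ebr01G014940 (log2 FC -1.93, adjusted p = 0.0453) and pectinesterase PPE8B Ebr02G028220 (log2 FC -3.01, adjusted p = 0.0455) also fell. The pectinesterases 18 Ebr05G036670 (log2 FC 1.58, adjusted p = 0.0429) and 12 Ebr02G028120 (log2 FC 1.83, adjusted p = 0.0486, 0.0687 without HN S2 A) rose. The cutin and wax list, the enzymes of the leaf's waterproof surface, had 46 of 61 members with a negative log2 fold change, against 11523 of all 22760 tested genes, and a median of -0.76. Its median for S3 over S2 was -1.0 under MN and -0.75 under LN. Of its members 2 were DEGs (DESeq2 called 0 higher and 16 lower), the very-long-chain fatty acid enzymes 3-ketoacyl-CoA synthase 11 Ebr01G019140 (log2 FC -1.07, adjusted p = 0.0325) and 3-ketoacyl-CoA synthase 1 Ebr04G022090 (log2 FC -2.89, adjusted p = 0.0449), both lower. In the lignin list of peroxidases and laccases, peroxidase 47 Ebr04G013890 (log2 FC -1.36, adjusted p = 0.0463) fell and peroxidase 4 Ebr03G008370 (log2 FC 4.33, adjusted p = 0.0495, 0.0546 without HN S2 A) rose among 80 tested (DESeq2 called 10 higher and 14 lower), with a median of -0.09.

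**Figure D3:**
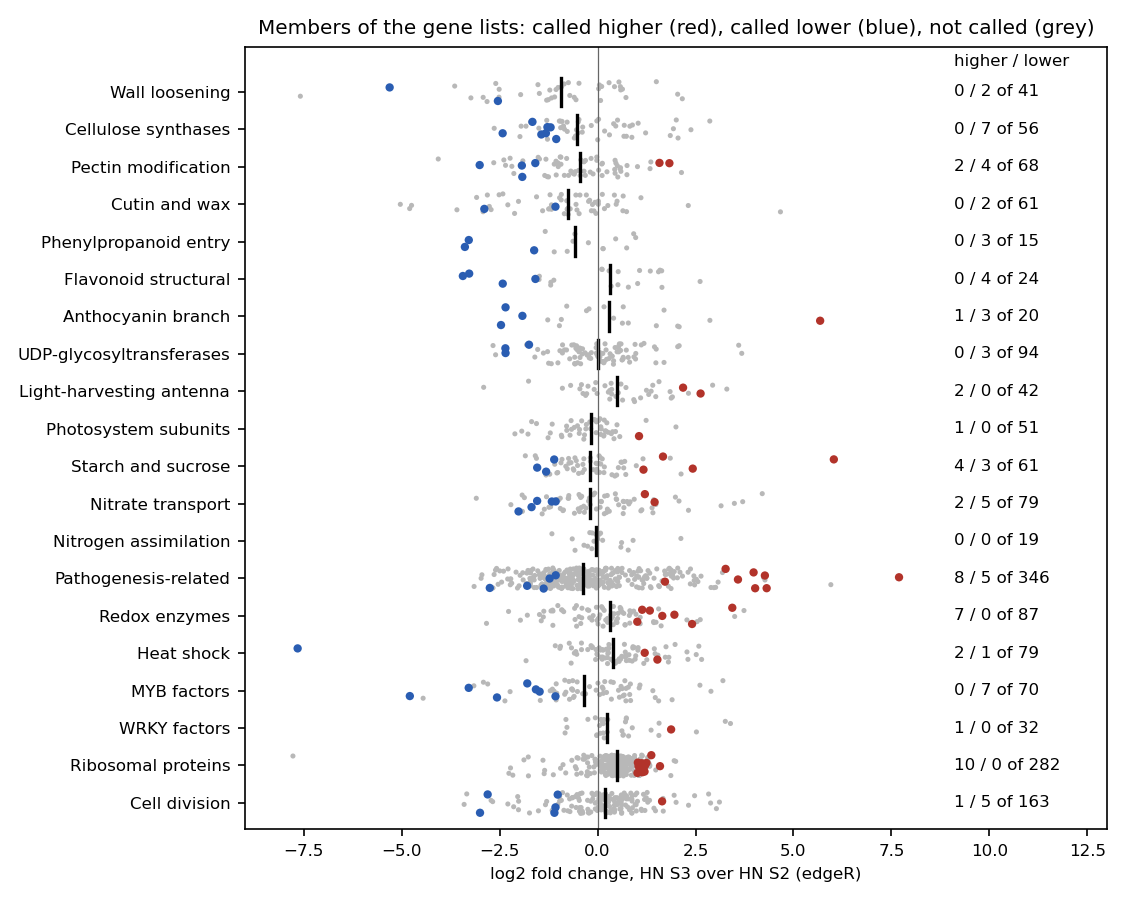
Log2 fold change of HN S3 over HN S2 for the tested members of 20 gene lists, with a point per gene, the median as a black bar and the counts of higher and lower DEGs at the right. The medians of the wall-loosening (-0.92), cutin and wax (-0.76) and cellulose (-0.52) lists lay below that of all tested genes (-0.01), and the ribosomal protein list (0.50) above it.

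For the phenylpropanoid and flavonoid pathway, several of the genes had been picked by the study from these libraries, HN S3 included, so their direction is no independent evidence. At its entry, 3 of 15 tested genes fell and none rose (DESeq2 called 3 lower and 0 higher). EpPAL2, Ebr04G040710, a phenylalanine ammonia-lyase that opens the pathway, had 2.28, 1.16 and 3.05 FPKM in HN S3, against 13.8, 28.3 and 22.1 FPKM in HN S2 (log2 FC -3.29, SE 0.43, adjusted p = 0.0297). Its near neighbour on chromosome 4, Ebr04G040750, a phenylalanine ammonia-lyase as well, had 1.16, 0.674 and 2.45 FPKM in HN S3, against 10.2, 20.4 and 15.1 FPKM in HN S2 (log2 FC -3.38, SE 0.52, adjusted p = 0.0374), and the pair may share reads. The 4-coumarate--CoA ligase Ebr04G003020, which activates coumaric acid for chalcone synthase, had 30.01, 30.7 and 36.2 FPKM in HN S3, against 87.04, 126 and 88.4 FPKM in HN S2 (log2 FC -1.62, SE 0.20, adjusted p = 0.0277). In all 3 genes the HN S3 libraries lay below the HN S2 libraries. The most abundant members of the list were not DEGs. Trans-cinnamate 4-monooxygenase Ebr01G074580 had 424, 413 and 231 FPKM in HN S3, against 253, 387 and 336 FPKM in HN S2 (log2 FC 0.15, SE 0.28, adjusted p = 0.765). The phenylalanine ammonia-lyase Ebr01G053210 had 151, 149 and 117 FPKM in HN S3, against 153, 183 and 160.5 FPKM in HN S2 (log2 FC -0.23, SE 0.16, adjusted p = 0.396).

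Of 24 flavonoid structural genes, 4 fell and none rose (DESeq2 called 6 lower and 1 higher). EpCHS2, Ebr05G049130, a chalcone synthase, had 25.7, 34.5 and 88.4 FPKM in HN S3, against 198, 314 and 294 FPKM in HN S2 (log2 FC -2.42, SE 0.50, adjusted p = 0.0495). EpCHS5, Ebr03G073940, also a chalcone synthase, had 3.65, 5.996 and 14.6 FPKM in HN S3, against 55.3, 96.9 and 86.1 FPKM in HN S2 (log2 FC -3.28, SE 0.54, adjusted p = 0.0412). HN S3 C was the highest of the HN S3 libraries in both, and HN S2 A the lowest of HN S2. The most abundant gene of the list, the chalcone synthase Ebr01G026640, was not a DEG. It had 811.5, 837 and 589 FPKM in HN S3, against 497, 902 and 690 FPKM in HN S2 (log2 FC 0.12, SE 0.26, adjusted p = 0.798), and its groups overlapped. EpF3'5'H1, Ebr01G061940, which hydroxylates the flavonoid B ring, had 3.74, 4.21 and 6.26 FPKM in HN S3, against 32.5, 77.6 and 46.5 FPKM in HN S2 (log2 FC -3.44, SE 0.38, adjusted p = 0.0263). EpFLS3, Ebr04G051790, a flavonol synthase, had 63.4, 64.9 and 100.4 FPKM in HN S3, against 234, 248 and 214 FPKM in HN S2 (log2 FC -1.59, SE 0.22, adjusted p = 0.0325). EpF3H, Ebr04G062950, the flavanone 3-hydroxylase before it, just missed the threshold with 50.3, 59.99 and 109.8 FPKM in HN S3, against 223, 224 and 182 FPKM in HN S2 (log2 FC -1.49, SE 0.31, adjusted p = 0.0507). The median of the list was 0.32, opposite in sign to its DEGs, and it was -0.53 without HN S3 C and -0.25 in the close pairs. The summed level of the list was 1148, 1204 and 1250 FPKM in HN S3, against 1434, 2023 and 1676 FPKM in HN S2, with no overlap.

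On the anthocyanin branch 3 of 20 genes fell and 1 rose (DESeq2 called 3 higher and 4 lower). A dihydroflavonol 4-reductase, Ebr05G024170, had 24.4, 24.4 and 37.7 FPKM in HN S3, against 60.7, 246 and 178 FPKM in HN S2 (log2 FC -2.46, SE 0.50, adjusted p = 0.0495), with HN S2 A well under the other HN S2 libraries. Leucoanthocyanidin dioxygenase Ebr05G052940, the step after it, had 6.84, 5.23 and 11.6 FPKM in HN S3, against 19.96, 42.1 and 28.9 FPKM in HN S2 (log2 FC -1.92, SE 0.39, adjusted p = 0.0486). The anthocyanidin glucosyltransferase Ebr06G044110 (log2 FC -2.35, adjusted p = 0.0325) also fell, and the low-level coumaroyltransferase Ebr01G044850 (log2 FC 5.68, adjusted p = 0.0435, 0.0563 without HN S2 A) rose. The tailoring genes of icariin-type compounds moved both ways. The prenyltransferase EpPT8, Ebr02G069700, had 40.5, 44.3 and 87.3 FPKM in HN S3, against 188, 278 and 202 FPKM in HN S2 (log2 FC -1.93, SE 0.34, adjusted p = 0.0434). EpPT5, Ebr02G069310, had 7.15, 8.12 and 24.2 FPKM in HN S3, against 0.754, 0.279 and 1.36 FPKM in HN S2 (log2 FC 4.01, SE 0.79, adjusted p = 0.0474). EpPT8 was therefore lower and EpPT5 higher in HN S3, the second no longer past the threshold without HN S2 A (adjusted p = 0.0692). EpUGT16_A, Ebr06G040830, a glycosyltransferase, had 35.6, 33.7 and 45.1 FPKM in HN S3, against 91.1, 115 and 128 FPKM in HN S2 (log2 FC -1.53, SE 0.20, adjusted p = 0.0302). The 2 matches to a cyanidin galactoside xylosyltransferase, Ebr06G044660 (log2 FC -3.49, adjusted p = 0.0393) and Ebr06G045440 (log2 FC -4.36, adjusted p = 0.0449), fell too, Ebr06G045440 not without HN S2 A (adjusted p = 0.0543). The wider list of 94 tested UDP-glycosyltransferases, which was drawn by keyword and held Ebr06G044110 but neither EpUGT16_A nor the xylosyltransferase matches, had 3 lower and no higher DEGs by edgeR (DESeq2 called 8 higher and 8 lower) and a median of -0.00.

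The MYB list, a family with many regulators of phenolic and surface synthesis, had 7 of 70 members lower and none higher (DESeq2 called 16 lower and 6 higher), and all 7 passed also without HN S3 C, without HN S2 A and in the close pairs. MYB111, Ebr0G003750, a match to a flavonol regulator of Arabidopsis, had 1.3, 1.06 and 1.71 FPKM in HN S3, against 5.99, 6.41 and 12.01 FPKM in HN S2 (log2 FC -2.57, SE 0.43, adjusted p = 0.0412). MYB123, Ebr05G065900, a match to the Arabidopsis proanthocyanidin regulator TT2, had 0.241, 0.183 and 0.641 FPKM in HN S3, against 4.02, 15.2 and 11.8 FPKM in HN S2 (log2 FC -4.79, SE 0.75, adjusted p = 0.0377). Both were low in every HN S3 library. Of the 2 MYB60 matches, named for a guard-cell factor of Arabidopsis, Ebr05G057070 had 8.403, 8.54 and 6.73 FPKM in HN S3, against 19.8, 32.9 and 30.3 FPKM in HN S2 (log2 FC -1.79, SE 0.24, adjusted p = 0.0306) and Ebr05G057020 changed likewise (log2 FC -3.29, adjusted p = 0.0325). The others were MYB61 Ebr01G015900 (log2 FC -1.48, adjusted p = 0.0325), MYB73 Ebr04G072060 (log2 FC -1.57, adjusted p = 0.0429) and MYBC1 Ebr01G038640 (log2 FC -1.07, adjusted p = 0.0442). Of the 2 factors that the study followed by name, MYB12, Ebr01G065030, had 0.554, 0.171 and 0.852 FPKM in HN S3, against 2.93, 1.54 and 3.11 FPKM in HN S2 (log2 FC -2.23, SE 0.67, adjusted p = 0.0971, not past the threshold). MYB1, Ebr04G001770, was listed at 0 in all 3 HN S3 libraries and at 1.37, 1.44 and 0.326 FPKM in HN S2, too low to be tested.

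**Figure D4:**
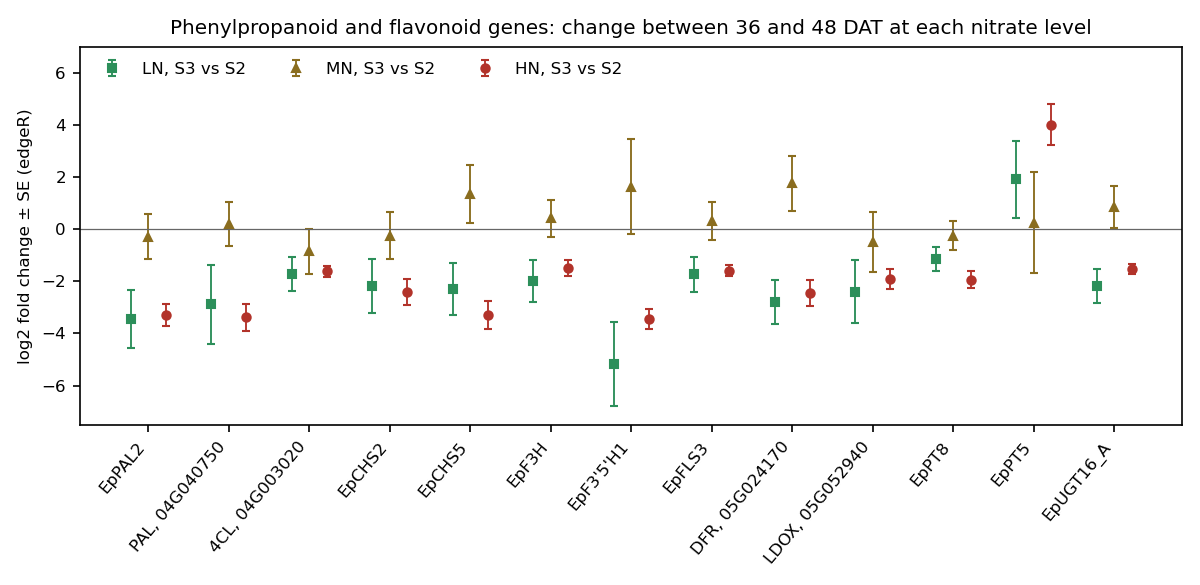
Log2 fold change ± SE of S3 over S2 under LN, MN and HN for 13 genes of the phenylpropanoid, flavonoid, prenylation and glycosylation steps (n = 3 libraries per treatment and day). The 13 were genes named by the study or DEGs of this comparison, so the 12 DEGs among them under HN are no measure of the pathway. Members that were not DEGs, such as the chalcone synthase Ebr01G026640 and the phenylalanine ammonia-lyase Ebr01G053210, were not plotted. EpF3'5'H1 stood at -5.17 under LN, 1.63 under MN and -3.44 under HN.

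Of 42 tested chlorophyll a-b binding proteins of the light-harvesting antenna of photosynthesis, 2 rose and none fell by edgeR (DESeq2 called 11 higher and 2 lower). That share, 4.76%, was near the 3.46% of all tested genes. Without HN S3 C, 13 were higher and 2 lower, where 1772 of all 24334 tested genes were higher and 1802 lower. The list's median was 0.50, and for S3 over S2 it was -1.1 under MN and 0.57 under LN. The 2 DEGs lie next to each other on chromosome 2 and may share reads. Ebr02G052400 had 44.1, 45.99 and 22.4 FPKM in HN S3, against 6.87, 7.96 and 3.595 FPKM in HN S2 (log2 FC 2.63, SE 0.41, adjusted p = 0.0377). Ebr02G052410 had 1242, 1361 and 454 FPKM in HN S3, against 261, 237 and 183 FPKM in HN S2 (log2 FC 2.18, SE 0.42, adjusted p = 0.0457), a call lost without HN S2 A (adjusted p = 0.0567). HN S3 C was the lowest HN S3 library in both. The most abundant antenna gene, Ebr06G030310, had 8916, 9067 and 4575 FPKM in HN S3, against 4139, 5947 and 6389 FPKM in HN S2 (log2 FC 0.47, SE 0.32, adjusted p = 0.389) and its groups overlapped. Over 51 photosystem and electron transport genes the median was -0.17 and only subunit 7 of the cytochrome b6-f complex Ebr01G003790 (log2 FC 1.06, adjusted p = 0.0468, 0.0606 without HN S2 A) passed by edgeR, as higher (DESeq2 called 3 higher and 6 lower). In the Calvin cycle list, an assembled Rubisco activase (log2 FC 1.18, adjusted p = 0.0498, 0.0692 without HN S2 A), whose model overlaps another activase gene, rose and a Rubisco small subunit Ebr02G041860 (log2 FC -1.28, adjusted p = 0.0485) fell among 23 (DESeq2 called 1 higher and 2 lower). Their means were 122 and 18.8 FPKM in HN S3. The list's most abundant tested gene, the Rubisco activase Ebr06G000760, had 2589, 2650 and 3067 FPKM in HN S3, against 2563, 2854 and 3031 FPKM in HN S2. It was not a DEG (log2 FC -0.01, SE 0.19, adjusted p = 0.982 by edgeR). None of 29 chlorophyll synthesis or 10 chlorophyll breakdown genes was a DEG by edgeR. At an unadjusted p below 0.05 there were 8 in the synthesis and 3 in the breakdown list, and DESeq2 called 1 higher and 2 lower in the synthesis list and 1 higher and 0 lower in the breakdown list.

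Of 61 starch and sucrose genes, 4 rose and 3 fell (DESeq2 called 7 higher and 9 lower). The alpha-amylase named above rose, as did a second alpha-amylase Ebr0G017820 (log2 FC 2.43, adjusted p = 0.0474, 0.0575 without HN S2 A), beta-amylase 1 Ebr06G015230 (log2 FC 1.17, adjusted p = 0.0498, 0.0722 without HN S2 A), which releases maltose from starch, and a cell wall invertase Ebr01G061310 (log2 FC 1.67, adjusted p = 0.0453), which splits sucrose outside the cell. The lower ones included the small subunit of ADP-glucose pyrophosphorylase, Ebr06G059080, the committing step of starch synthesis, with 39.6, 36.04 and 52.2 FPKM in HN S3, against 103, 106 and 112 FPKM in HN S2 (log2 FC -1.31, SE 0.18, adjusted p = 0.0325). Alpha-glucan phosphorylase Ebr01G045000, which acts on glucan ends in the cytosol, had 42.2, 40.4 and 58.4 FPKM in HN S3, against 140.5, 146 and 128 FPKM in HN S2 (log2 FC -1.54, SE 0.19, adjusted p = 0.0294). Sucrose synthase Ebr05G014040, the most abundant gene of the list, had 604, 577 and 422 FPKM in HN S3, against 967, 1399 and 1125 FPKM in HN S2 (log2 FC -1.11, SE 0.23, adjusted p = 0.0498, log2 FC -0.97 without HN S3 C). In each of these 3 the HN S3 libraries lay below all HN S2 libraries.

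Of 79 tested genes of the nitrate transport list, 5 fell and 2 rose (DESeq2 called 15 higher and 9 lower), with a median of -0.19, and 5 of the 7 also passed without HN S2 A. The list was drawn by keyword and holds matches to the NRT1/PTR family (NPF), whose substrates were not tested. The high-affinity nitrate transporter 3.1, Ebr03G053620, the accessory subunit of NRT2 transporters, had 95.5, 112 and 137 FPKM in HN S3, against 37.5, 43.01 and 46.5 FPKM in HN S2 (log2 FC 1.46, SE 0.19, adjusted p = 0.0297). NPF5.1 Ebr01G072410 (log2 FC 1.21, adjusted p = 0.0444, 0.054 without HN S2 A) rose too. NPF3.1, Ebr0G011500, had 14.4, 16.3 and 13.7 FPKM in HN S3, against 34.96, 34.3 and 31.6 FPKM in HN S2 (log2 FC -1.17, SE 0.14, adjusted p = 0.0284). NPF2.13, Ebr03G061500, a match to a nitrate transporter that serves remobilisation from older leaves in Arabidopsis, had 30.9, 38.2 and 58.97 FPKM in HN S3, against 104, 150 and 124 FPKM in HN S2 (log2 FC -1.54, SE 0.28, adjusted p = 0.0444). Both were lower in all 3 HN S3 libraries, as were the NPF2.11 matches Ebr03G061400 (log2 FC -2.02, adjusted p = 0.0322) and Ebr03G061470 (log2 FC -1.68, adjusted p = 0.0485) and NPF5.4 Ebr03G019840 (log2 FC -1.07, adjusted p = 0.0491, 0.0617 without HN S2 A). The NPF2 genes are neighbours on chromosome 3 and may share reads. None of 19 assimilation genes (nitrate and nitrite reductase, glutamine and glutamate synthases and related enzymes) was a DEG by edgeR, with a median of -0.05, 5 at an unadjusted p below 0.05, and 1 higher and 0 lower by DESeq2. Its most abundant member, cytosolic glutamine synthetase Ebr01G000170, had 851, 838 and 808 FPKM in HN S3, against 595, 936 and 986 FPKM in HN S2 (log2 FC 0.01, SE 0.23, adjusted p = 0.99), so the groups overlapped. Among 45 amino acid transporters, 1 rose and none fell by edgeR (DESeq2 called 7 higher and 2 lower). It was an assembled gene matching LYSINE HISTIDINE TRANSPORTER-LIKE 8, with 6.51, 6.79 and 8.404 FPKM in HN S3, against 0, 0 and 0.486 FPKM in HN S2 (log2 FC 5.22, adjusted p = 0.0489, 0.0585 without HN S2 A). An amidase, Ebr04G062170, which the study named as a network hub, rose with 65.6, 71.5 and 63.6 FPKM in HN S3, against 31.1, 18.3 and 25.4 FPKM in HN S2 (log2 FC 1.44, SE 0.22, adjusted p = 0.0374).

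The list of 346 pathogenesis-related and resistance genes had 8 higher and 5 lower DEGs (DESeq2 called 37 higher and 28 lower) and a median of -0.36. Its share of DEGs, 3.76%, was near the 3.46% of all tested genes, so the genes below are single cases and not a shift of the list. The higher ones were mostly secreted proteins. A PR-1 match, Ebr04G066000, a classical marker of salicylate-linked defence, had 9.97, 11.7 and 12.1 FPKM in HN S3, against 0, 0 and 0.109 FPKM in HN S2 (log2 FC 7.69, SE 0.80, adjusted p = 0.0244). PR-4B, Ebr01G014590, a chitin-binding protein, had 362, 409 and 323 FPKM in HN S3, against 38.2, 6.95 and 24.4 FPKM in HN S2 (log2 FC 3.98, SE 0.60, adjusted p = 0.0361). Both were high in all HN S3 libraries. The 3 beta-1,3-glucanases Ebr06G031060 (log2 FC 3.58, adjusted p = 0.0305), Ebr05G035330 (log2 FC 4.32, adjusted p = 0.0377) and Ebr06G031020 (log2 FC 4.27, adjusted p = 0.0453), which cut callose and fungal glucans, and a thaumatin-like protein Ebr02G030610 (log2 FC 3.27, adjusted p = 0.0419) rose as well. Of the receptor-type resistance genes, Ebr03G034010 (log2 FC 1.72, adjusted p = 0.0475) and the Pik-1 match Ebr04G064490 (log2 FC 4.02, adjusted p = 0.0498) rose. In contrast, Ebr06G047630 (log2 FC -1.38, adjusted p = 0.0288), Ebr06G047530 (log2 FC -1.22, adjusted p = 0.0325), Ebr02G016580 (log2 FC -1.07, adjusted p = 0.0377) and the RGA1 match Ebr02G003830 (log2 FC -2.75, adjusted p = 0.0462), which overlaps an undescribed gene model, fell with ENHANCED DISEASE RESISTANCE 4 Ebr05G061060 (log2 FC -1.80, adjusted p = 0.0445, 0.0534 without HN S2 A). Such receptor families hold close copies that may share reads.

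Of 87 redox enzymes 7 rose and none fell (DESeq2 called 3 lower and 13 higher), with a median of 0.32, and 3 of the 7 also passed without HN S2 A. An assembled ascorbate peroxidase gene, whose product removes hydrogen peroxide, had 696, 619.6 and 937 FPKM in HN S3, against 349.9, 246 and 307 FPKM in HN S2 (log2 FC 1.33, SE 0.23, adjusted p = 0.0429). The others were dehydroascorbate reductase DHAR1 Ebr01G054310 (log2 FC 1.65, adjusted p = 0.0412), which returns ascorbate to its reduced form, and the glutaredoxins C14 Ebr04G045000 (log2 FC 3.44, adjusted p = 0.0429) and S3 Ebr0G004230 (log2 FC 2.41, adjusted p = 0.0498, 0.0686 without HN S2 A). Glutathione S-transferases, which conjugate glutathione to reactive compounds, gave the remaining DEGs, Ebr06G005170 (log2 FC 1.14, adjusted p = 0.0449, 0.0555 without HN S2 A), Ebr05G063960 (log2 FC 1.01, adjusted p = 0.0488, 0.0504 without HN S2 A) and Ebr04G019390 (log2 FC 1.96, adjusted p = 0.0498, 0.0508 without HN S2 A). The summed level of the list was 8547, 8942 and 8381 FPKM in HN S3, against 5862, 5843 and 6283 FPKM in HN S2, with no overlap. Of 79 heat shock genes, 58 had a positive log2 fold change (DESeq2 called 16 higher and 1 lower), against 11237 of all 22760 tested genes. The median of the list was 0.39, and for S3 over S2 it was 0.46 under MN and 0.23 under LN. An HSC70 chaperone Ebr02G010000 (log2 FC 1.20, adjusted p = 0.0485) and the factor HSF24 Ebr04G050700 (log2 FC 1.53, adjusted p = 0.0498) rose. Heat stress factor A-3, Ebr02G068360, fell to 0 in all 3 HN S3 libraries, against 2.25, 1.58 and 0.695 FPKM in HN S2 (adjusted p = 0.0485 by edgeR, 0.0757 without HN S2 A). Among 47 sodium and potassium transport genes the channel AKT2/3, Ebr01G067670, a phloem potassium channel in Arabidopsis, rose with 11.4, 12.4 and 2.11 FPKM in HN S3, against 0.213, 0.0394 and 0.192 FPKM in HN S2 (log2 FC 5.81, SE 0.90, adjusted p = 0.0377), the 1 DEG of its list (DESeq2 called 2 higher and 2 lower). Sodium/hydrogen exchanger 1, Ebr01G001390, which moves sodium into the vacuole, had 9.297, 8.97 and 11.02 FPKM in HN S3, against 5.51, 3.14 and 2.67 FPKM in HN S2 (log2 FC 1.39, SE 0.32, adjusted p = 0.058, not past the threshold).

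For senescence and proteolysis, 2 of 47 genes rose (DESeq2 called 4 higher and 0 lower). A senescence/dehydration-associated protein, Ebr05G014660, had 12.6, 12.5 and 12.6 FPKM in HN S3, against 2.85, 4.62 and 3.95 FPKM in HN S2 (log2 FC 1.74, SE 0.24, adjusted p = 0.0325), almost equal in the 3 HN S3 libraries. Autophagy-related ATG8C, Ebr03G026970, which coats autophagosomes, had 269.6, 294 and 144 FPKM in HN S3, against 95.1, 95.8 and 95.98 FPKM in HN S2 (log2 FC 1.32, SE 0.27, adjusted p = 0.0493), a call lost without HN S2 A (adjusted p = 0.0686). The papain-like protease RD19A, Ebr05G025550, had 968, 883 and 571 FPKM in HN S3, against 533, 485 and 489.5 FPKM in HN S2 (log2 FC 0.70, SE 0.23, adjusted p = 0.111) without passing. Among 32 NAC and 32 WRKY factors, families with many regulators of leaf ageing and defence, NAC6 Ebr04G057390 (log2 FC 2.92, adjusted p = 0.0412) and WRKY48 Ebr02G006030 (log2 FC 1.88, adjusted p = 0.0429) rose and none fell by edgeR, whereas DESeq2 called 4 higher and 3 lower NAC and 4 higher and 0 lower WRKY factors. Of 55 bHLH factors, bHLH35, Ebr05G003640, rose with 70.7, 61.3 and 53.6 FPKM in HN S3, against 11.9, 3.31 and 6.83 FPKM in HN S2 (log2 FC 3.08, SE 0.45, adjusted p = 0.0336). The factors bHLH94 Ebr01G017340 (log2 FC -2.36, adjusted p = 0.0377) and bHLH70 Ebr0G009010 (log2 FC -2.34, adjusted p = 0.0461) fell (DESeq2 called 5 higher and 3 lower). In the auxin list of 63, IAA16 Ebr02G064960 (log2 FC 1.11, adjusted p = 0.0429, 0.0505 without HN S2 A, log2 FC 0.92 without HN S3 C) rose and IAA8 Ebr03G069330 (log2 FC -1.93, adjusted p = 0.0458) and ARF22 Ebr06G007100 (log2 FC -1.06, adjusted p = 0.0375) fell (DESeq2 called 5 higher and 6 lower). In the ethylene list of 72, ERF034 Ebr04G012930 (log2 FC -1.01, adjusted p = 0.0429, log2 FC -0.99 without HN S2 A and -0.91 without HN S3 C), an AP2-like factor Ebr02G073540 (log2 FC -2.31, adjusted p = 0.0485) and an ACC oxidase homolog Ebr03G029890 (log2 FC -1.37, adjusted p = 0.0474, 0.0596 without HN S2 A) fell (DESeq2 called 1 higher and 4 lower). In the abscisic acid and jasmonate list of 37, abscisic acid 8'-hydroxylase 2 Ebr06G001800 (log2 FC -1.48, adjusted p = 0.0435), which breaks the hormone down, fell (DESeq2 called 0 higher and 3 lower). In the clock list of 33, the APRR5 match Ebr05G066840 (log2 FC 1.83, adjusted p = 0.044) rose (DESeq2 called 1 higher and 4 lower); sources used here gave no hour of sampling.

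The ribosomal protein list had 10 of 282 members higher and none lower (DESeq2 called 3 lower and 19 higher), with log2 fold changes between 1.02 and 1.59 for the 10, and 240 members with a positive value. Among all 22760 tested genes, 11237 had a positive value. The median of the list was 0.50, and for S3 over S2 it was 0.51 under MN and 0.07 under LN. The 60S protein L24-2, Ebr01G022690, had 223, 258 and 228 FPKM in HN S3, against 96.9, 96.1 and 117 FPKM in HN S2 (log2 FC 1.21, SE 0.16, adjusted p = 0.0302). The 40S protein S9-2, Ebr03G068140, had 174, 184 and 156 FPKM in HN S3, against 82.6, 66.8 and 85.2 FPKM in HN S2 (log2 FC 1.14, SE 0.16, adjusted p = 0.0325). The groups did not overlap in either. The list's summed level was 30180, 34490 and 35070 FPKM in HN S3, against 22670, 21290 and 25810 FPKM in HN S2, but 3 of the 10 DEGs remained without HN S2 A, and many ribosomal genes have close copies. Of 84 aminoacyl-tRNA synthetases, a methionine enzyme Ebr05G006390 (log2 FC 1.43, adjusted p = 0.0444) rose and a glutamate enzyme Ebr04G057710 (log2 FC -2.69, adjusted p = 0.0498, 0.0659 without HN S2 A) fell (DESeq2 called 2 higher and 3 lower). In the cell division list of 163, 5 fell, among them 3 kinesins, KIN-14I Ebr04G063790 (log2 FC -1.10, adjusted p = 0.0429, log2 FC -0.96 without HN S3 C) and Ebr01G007690 (log2 FC -1.07, adjusted p = 0.0468, log2 FC -0.97 without HN S3 C) and KIN-7F Ebr02G049710 (log2 FC -1.02, adjusted p = 0.0455). A histone H4 Ebr01G054300 (log2 FC 1.65, adjusted p = 0.0498, 0.0723 without HN S2 A) was the only one that rose by edgeR (DESeq2 called 7 higher and 11 lower). None of 23 aquaporins was a DEG by edgeR, 6 were at an unadjusted p below 0.05, and DESeq2 called 1 higher and 1 lower.

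Summed levels of lists, here and above, are over all members in the tables, tested or not. The mesophyll list (Rubisco small subunit, antenna and oxygen-evolving proteins) summed to 54950, 57090 and 32790 FPKM in HN S3, against 30730, 39910 and 46450 in HN S2, so HN S3 C was nearer to HN S2 A than to HN S3 A and B. Of 3 root markers, Casparian strip proteins and root growth factors, none had enough counts to be tested. Their sum was 0.0903 FPKM in HN S3 A and 0 in HN S3 B and C, against 0.184, 0 and 0.0831 FPKM in HN S2 A, B and C. The flower list, of which 9 of 11 members were tested, all 9 as matches to APETALA 2, APETALA2-like or ULTRAPETALA proteins, summed to 111, 120.1 and 128 FPKM in HN S3, against 142, 138 and 129 FPKM in HN S2. The 22 phloem genes, 14 of them tested, summed to 265, 252 and 269 FPKM in HN S3, against 143, 185 and 206 FPKM in HN S2. The 27 xylem genes, 17 of them tested, summed to 2276, 2231 and 1067 FPKM in HN S3, against 1709, 3310 and 2468 in HN S2. The phloem sums thus separated the groups, although none of the phloem genes was a DEG (4 at an unadjusted p below 0.05, 2 higher by DESeq2), and the xylem sums overlapped, with Ebr01G064790 named above as the only xylem-list DEG by edgeR (DESeq2 called 1 higher and 3 lower). The part of vein tissue in the changes above was not tested.

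The same days under the other treatments gave almost no DEGs of their own. S3 against S2 had 2 under MN (0.00914% of 21885 genes; 1 higher and 1 lower, 0.00457% each) and 0 under LN (0% of 22182) by edgeR. At an unadjusted p below 0.05 there were 4143 under MN and 1817 under LN, and DESeq2 called 1714 under MN and 583 under LN. The HN DEGs nevertheless had mostly the same sign there. Of the 419 genes higher in HN S3, 302 of the 372 tested under MN and 277 of the 378 tested under LN had a positive log2 fold change, against 50.6% and 52.1% of all genes tested in both comparisons, and their median was 0.85 under MN and 0.46 under LN. Of the 368 lower genes, 303 of 347 under MN and 302 of 346 under LN were negative, against 49.4% and 47.9% of all, with medians of -0.93 and -0.76. The HN medians of 1.81 and -1.67 were of genes chosen for being large under HN, so the smaller medians elsewhere are a description and not a test of a difference.

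**Figure D5:**
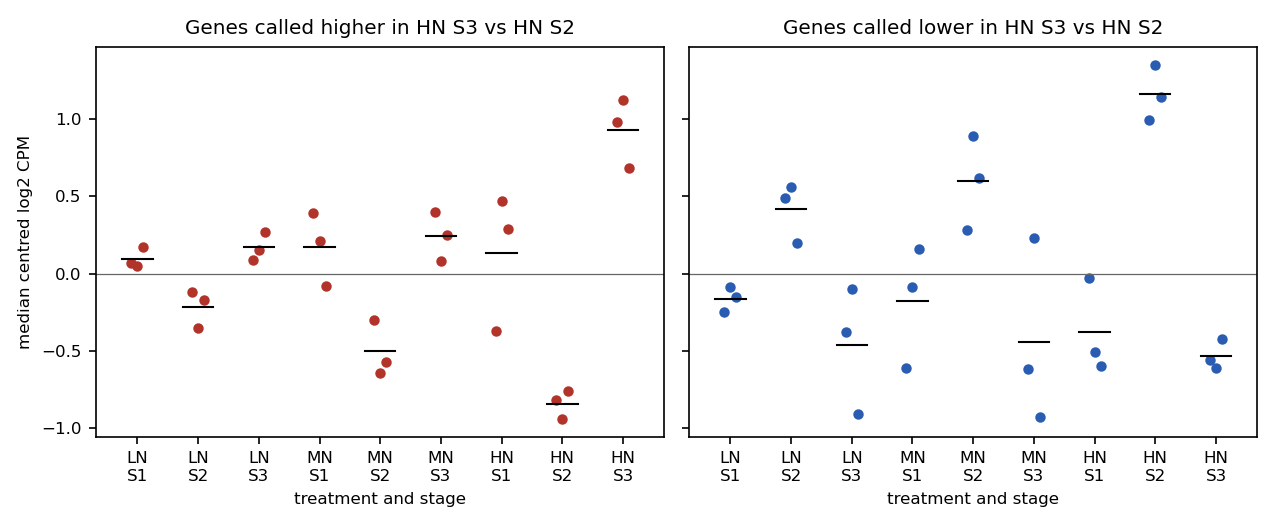
Median over the DEGs of log2 CPM, centred per gene on all 27 libraries, for the genes higher (left) and lower (right) in HN S3, by treatment and stage in order S1 to S3, with a point per library and a bar for the mean of 3. The genes were chosen on the HN S3 and HN S2 libraries; under MN the higher set stood at -0.30, -0.64 and -0.57 at S2 and at 0.40, 0.08 and 0.25 at S3.

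Tests of the difference itself found few genes. The change under HN differed from that under MN for 25 of 25337 genes (0.0987%), 22 with a lower (0.0868%) and 3 with a higher (0.0118%) value under HN, and from that under LN for 7 of 25426 (0.0275%), all higher under HN. Both tests used the same HN libraries. The count against MN ran between 1 and 235 as each library was left out, with 1 without HN S3 A or HN S3 B, 6 without HN S2 B, 13 or 15 without HN S2 C, MN S2 B, MN S2 C or MN S3 C, 57 and 87 without MN S3 A and B, 204 without MN S2 A and 235 without HN S3 C. That against LN ran between 3 and 63, with 3 without HN S3 A, HN S3 B or HN S2 B, 4 without LN S3 C, 14 without LN S2 C, 43 without LN S3 B and 63 without HN S3 C. Against MN, the NPF3.1 match, Ebr0G011500, stood out. It fell under HN as described above, and had 31.8, 47.9 and 43.02 FPKM in MN S3, against 14.6, 9.92 and 18.1 FPKM in MN S2, a difference between the log2 fold changes of -2.71, SE 0.33, adjusted p = 0.0166 by edgeR. An actin, Ebr06G002520, had 6.31, 4.505 and 4.91 FPKM in HN S3, against 5.603, 7.601 and 5.95 FPKM in HN S2, and 3.18, 2.69 and 2.27 FPKM in MN S3, against 71, 60.7 and 46.7 FPKM in MN S2 (difference 4.16, SE 0.34, adjusted p = 0.00313). Its HN groups were alike and the difference came from the high MN S2 libraries. An aspartyl protease and an alpha-glucosidase, both assembled models, were at 0 in all 3 MN S2 libraries (adjusted p = 0.0166 and 0.0166). Against LN, the leading gene was the PLANT CADMIUM RESISTANCE 3 match, which rose under HN as given above, whereas it had 33.2, 41.7 and 37.9 FPKM in LN S3, against 43.03, 54.6 and 49.2 FPKM in LN S2 (difference 4.75, SE 0.32, adjusted p = 0.000461). The XTH22 match Ebr04G059570 was at 0 in all LN S3 libraries (adjusted p = 0.033), and PSK SIMULATOR 1, Ebr01G048250, had 0.878, 0.889 and 0.343 FPKM in HN S3, against 0.03196, 0 and 0 FPKM in HN S2 (adjusted p of the difference 0.0462).

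None of the 13 pathway genes plotted by treatment passed a test of a difference. The smallest adjusted p against MN was 0.212, for EpCHS5, Ebr03G073940, which had 8.698, 217 and 40.97 FPKM in MN S3, against 24.7, 19.8 and 60.6 FPKM in MN S2. Against LN the smallest was 0.671, for EpPT8, Ebr02G069700, which had 98.3, 101 and 32.8 FPKM in LN S3, against 185, 194 and 132 FPKM in LN S2. EpCHS5 had log2 FCs of -2.30 with LN, 1.36 with MN and -3.28 with HN. Along the 3 HN stages, the genes lower in HN S3 were by their median highest at HN S2, with a median log2 difference of 1.54 for S2 minus S1 and of -0.16 for S3 minus S1. Single genes differed in this: EpF3'5'H1 had a mean of 236 FPKM in HN S1 and 52.2 in HN S2, whereas EpFLS3 had 99.6 and 232. The genes higher in HN S3 were by their median lowest at HN S2, with -0.94 for S2 minus S1 and 0.73 for S3 minus S1. Because HN S2 served in the choice of these genes, its distance from S1 is a description without a test.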

How the data were processed

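Libraries of leaf RNA (NEBNext Ultra kit, Illumina NovaSeq) had been aligned by the authors to an E. pubescens genome with HISAT2 2.0.5, new genes had been assembled with StringTie 1.3.3b, and the submitters' processing notes also name featureCounts 1.5.0-p3. The name of the build, the annotation version and the strand setting do not appear in the sources used here, so a gene and one overlapping it cannot be told apart by strand. The authors deposited whole-number counts and FPKM values per gene with Swiss-Prot descriptions (32607 of 58645 genes, 13923 being new models), which are matches by sequence and not tested functions; 19738 genes had no count in the 6 libraries. The FPKM values were used for levels and in limma, and the counts for the tests.

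Counts of the 6 libraries were filtered with filterByExpr, scaled by TMM (normalization factors 0.914 to 1.09) and fitted with edgeR 4.0.16 (glmQLFit, two-sided glmQLFTest, R 4.3.3). DEGs needed a Benjamini-Hochberg adjusted p below 0.05 together with a log2 fold change of 1 or more in size, the thresholds in the study's methods. Differences between treatments were interaction contrasts over 12 libraries without a fold threshold. With 3 against 3 libraries an exact permutation test of a gene could not go below p = 0.1, so only model-based tests across all genes were run. Alternatives used DESeq2 1.42.0 and limma 3.58.1, other filters and scalings, the replicate letter as a block, and fits without each library. The fits were tested on simulated counts.

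The comparison, the 35 keyword lists and 5 marker lists were chosen with earlier results of these data known. Named genes were, per direction, the 10 described genes with the smallest p and groups without overlap, genes named by the study, the leading genes of each list by p or level, and the leading genes of each interaction. Other DEGs of a list were named after their values were seen. Genes with close copies may share reads. No sequence is shown, since no reference was used here.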

Additional observations from a re-analysis of the deposited data

Results flagged for a closer look

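The change of HN S3 over HN S2 differed from the change over the same days under another treatment, by edgeR's test of the interaction, in 25 genes against MN and in 7 against LN. Among the genes named above, the difference of the log2 fold changes, HN minus MN, was -2.71 for NPF3.1, Ebr0G011500, and 4.16 for the actin Ebr06G002520. It was -9.66 for the assembled aspartyl protease and -9.19 for the alpha-glucosidase, both at 0 in all 3 MN S2 libraries, so that these 2 values depend on the prior count. The difference HN minus LN was 4.75 for the PLANT CADMIUM RESISTANCE 3 match, 12.41 for PSK SIMULATOR 1, Ebr01G048250, and 11.52 for the XTH22 match Ebr04G059570. The last was at 0 in all 3 LN S3 libraries, and PSK SIMULATOR 1 at 0 in HN S2 B and C, so both depend on the prior count as well. In the PLANT CADMIUM RESISTANCE 3 match the 3 LN S3 libraries had 33.2, 41.7 and 37.9 FPKM, against 43.03, 54.6 and 49.2 FPKM in LN S2, and the 3 HN S3 libraries 18.1, 19.6 and 28.9 FPKM, against 1.17, 1.17 and 0.897 FPKM in HN S2. Its MN S2 libraries, at 42.5, 0.0374 and 0.068 FPKM, differed widely from each other.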

How the results depend on the processing

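The 787 DEGs became 2864 with DESeq2, 165 in a fit of all 27 libraries, 52 in a fit of the 9 HN libraries, 5589 with limma voom and sample quality weights, and 6891 in the close pairs HN S3 A and B against HN S2 B and C; with each library left out they ran between 0 and 3574 by edgeR and, an alternative chosen after seeing the data, 3504, 1611 and 2074 without HN S2 A, B and C and 1629, 1320 and 5212 without HN S3 A, B and C by DESeq2. DESeq2 size factors, no filter on low counts, limma on log2(FPKM + 1) or log2(FPKM + 0.1), and no fold threshold gave 792 to 978. The replicate letters did not pair the libraries (deviations of same-letter libraries correlated at 0.111, -0.083 and 0.034): with the replicate block no gene passed by edgeR (5179 at an unadjusted p below 0.05), and 2 genes passed against MN and 3 against LN. The 25 genes against MN became 1011 with DESeq2, 39 and 67 with limma at pseudocounts 1 and 0.1, 2893 with quality weights, and 1 to 235 with a library left out. The 7 against LN became 573 with DESeq2, 20 without the filter, 0 in the fit of all 27 libraries (2544 at an unadjusted p below 0.05), 20 and 26 with limma at pseudocounts 1 and 0.1, 987 with quality weights, and 3 to 63 with a library left out. The causes were not tested. Cytosolic glutamine synthetase, Ebr01G000170, far from the threshold, turned to -0.01 in the fit of all 27 libraries, -0.12 with quality weights and -0.19 in the close pairs, and ran between -0.20 (-0.19 by DESeq2) and 0.15 with a library left out. The HN change of the assembled aspartyl protease ran between -0.20 and 0.35 with a library left out, with -0.03 and -0.21 by DESeq2 without HN S2 C and HN S3 A. Of the 139 DEGs named, 139 were also called by DESeq2, 136 in the close pairs, 134 without HN S3 C, 110 without HN S2 A, 14 in the fit of all 27 libraries and 0 with the replicate block.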

Other observations

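Other gene groups, put together after their values had been seen, are given as descriptions without support from the choice. Of 66 tested genes of phosphate transport and starvation, 9 were lower in HN S3 and none higher by edgeR (DESeq2: 14 lower and 6 higher), although the median of the list was -0.14. Beside SPX domain-containing protein 1 they included SPX2, Ebr02G060760, with 6.79, 7.85 and 8.56 FPKM in HN S3, against 31.02, 25.4 and 14.9 FPKM in HN S2 (log2 FC -1.60, SE 0.29, adjusted p = 0.0444), and the phosphate exporter PHO1 homolog 3, Ebr03G045320, with 7.77, 6.83 and 6.62 FPKM in HN S3, against 25.99, 20.2 and 17.4 FPKM in HN S2 (log2 FC -1.57, SE 0.19, adjusted p = 0.0288). Purple acid phosphatase 3, Ebr02G039170, which frees phosphate from organic compounds, had 1.896, 1.42 and 1.32 FPKM in HN S3, against 22.4, 13.3 and 6.31 FPKM in HN S2 (log2 FC -3.16, SE 0.49, adjusted p = 0.0377). In all 3 the groups did not overlap. The nutrient solutions' phosphate was not analysed here.

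Of 51 calcium-binding proteins, 6 rose and none fell (DESeq2: 14 higher and 1 lower), with a median of 0.63. The calmodulin-like CML41, Ebr04G014080, had 92.5, 97.2 and 31.9 FPKM in HN S3, against 3.07, 8.57 and 8.94 FPKM in HN S2 (log2 FC 3.44, SE 0.58, adjusted p = 0.0412). HN S3 C was the lowest HN S3 library and still above all HN S2 libraries. Upstream of the phenylpropanoid pathway, 2 of 34 tested shikimate and arogenate genes fell and 1 rose (DESeq2: 2 higher and 4 lower), with a median of -0.10. The lower ones were arogenate dehydratase 1 Ebr05G051240 (log2 FC -1.80, adjusted p = 0.0404), which makes phenylalanine, and arogenate dehydrogenase 2 Ebr03G027970 (log2 FC -2.11, adjusted p = 0.0489, 0.0575 without HN S2 A), which makes tyrosine. A second pinoresinol reductase Ebr02G043160 (log2 FC -3.50, adjusted p = 0.0457, 0.057 without HN S2 A) fell with the leading one, the 2 DEGs among 5 tested (DESeq2: 0 higher and 2 lower). Of 13 tested galactinol and raffinose genes, 2 rose and 1 fell (DESeq2: 3 higher and 1 lower). The higher ones were matches to galactinol synthase 2, which starts raffinose synthesis, Ebr01G012170 (log2 FC 3.47, adjusted p = 0.0325) and Ebr01G012140 (log2 FC 2.28, adjusted p = 0.0468, 0.0505 without HN S2 A).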
